A study of Mus musculus with 24 samples.

Results

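Arc, the activity-regulated cytoskeleton-associated protein gene, was followed over 24 expression arrays of mouse brain RNA. All probe sets with the gene symbol Arc were taken, and there was 1, 1418687_at, among the 45037 probe sets and 18193 named genes tested. Arc was selected on its measured level in supernatant and on its relation to the 18S control signal in pull-downs, so both are given here as descriptions without a test.

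The study asked which transcripts change after sleep deprivation in the brain cells that express Homer1a, the short splice form of the Homer1 scaffold of the postsynapse, made when neurons are active. The mice were males of 12 weeks, give or take a week, killed 6 h after lights on. RNA of these cells was recovered by mRNA tagging, an immunoprecipitation of polyadenylated RNA through a FLAG-tagged protein on anti-FLAG beads, from brains fixed with formaldehyde. The labels give no strain, no transgene and no promoter, which limits what can be said of the cells that carry the tag.

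There were 5 groups. Pull-down after sleep deprivation (6 arrays) held immunoprecipitated RNA of mice kept awake by gentle handling for 6 h from lights on. Pull-down control (6 arrays) held the same kind of RNA of undisturbed mice. Supernatant (4 arrays) held total RNA left after immunoprecipitation, labelled as Homer1a negative cells. Arrays 14 and 15 are labelled as sleep-deprived and array 16 as control, while array 13 is titled as sleep-deprived and described as control in its source. The 4 were kept as 1 group, which is therefore not balanced between the conditions as whole brain and pull-down are. Whole brain after sleep deprivation (4 arrays) and whole-brain control (4 arrays) held total RNA of unfixed brains. An array is called here by its group and its title's number, and no label ties a supernatant to a pull-down array.

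Arc is an immediate early gene: its transcription starts within minutes of synaptic activity in excitatory neurons, and its mRNA travels into dendrites, where it is translated near active synapses. The protein works with endophilin and dynamin to take AMPA-type glutamate receptors off the cell surface, and so weakens synapses. Arc descends from a retrotransposon Gag gene and its protein forms capsid-like shells. In the forebrain Arc mRNA is widely used as a mark of recently active neurons and is known to be higher in the awake than in the sleeping brain.

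Values are log2 RMA intensities. A group is given as mean ± SD and a difference as ± its standard error (SE). The arrays differed in more than their groups. The median of all probe sets on an array averaged 4.91 ± 0.33 in pull-down after sleep deprivation, 5.04 ± 0.44 in pull-down control, 6.15 ± 0.05 in supernatant, 6.09 ± 0.06 in whole brain after sleep deprivation and 6.17 ± 0.05 in whole-brain control. The 18S control signal, the mean of 3 probe sets for a ribosomal RNA without a poly(A) tail, was 8.49 ± 1.55 and 8.59 ± 1.59 in the pull-down groups after sleep deprivation and in control, 14.29 ± 0.09 in supernatant, and 13.83 ± 0.03 and 13.86 ± 0.07 in the whole-brain groups in the same order. The 3′ minus 5′ difference of Gapdh probe sets, a measure of how far labelling reached along a transcript, was 5.01 ± 0.80 and 4.84 ± 0.83 in pull-down after sleep deprivation and control, 2.43 ± 0.13 in supernatant, and 2.86 ± 0.10 and 2.65 ± 0.12 in whole brain. The part these differences play in the levels of Arc was not tested.

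On the deposited scale Arc had its highest mean in supernatant, followed by pull-down after sleep deprivation, whole brain after sleep deprivation, pull-down control and whole-brain control. Within pull-down after sleep deprivation, array 1 read 9.17, array 6 read 7.83, array 3 read 7.80, array 10 read 7.66, array 12 read 7.56 and array 7 read 7.45, with a median of 7.73 and a mean of 7.91 ± 0.63. Pull-down control arrays read 8.55 (array 3), 7.16 (array 8), 6.40 (array 9), 6.29 (array 11), 5.88 (array 13) and 5.74 (array 4), with a median of 6.35 and a mean of 6.67 ± 1.04. In each of these groups 1 array stood above the rest, array 1 after sleep deprivation and array 3 among controls, and the groups overlapped through control array 3.

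Supernatant arrays read 8.66 (array 15), 8.56 (array 14), 8.09 (array 16) and 7.48 (array 13), a mean of 8.20 ± 0.54. Whole brain after sleep deprivation read 7.47 (array 21), 7.43 (array 20), 7.30 (array 18) and 7.18 (array 19), a mean of 7.35 ± 0.13. Whole-brain control read 6.45 (array 25), 6.31 (array 23), 6.03 (array 22) and 5.69 (array 24), a mean of 6.12 ± 0.33. The whole-brain groups were tight and did not overlap. As deposited, every supernatant array lay above every whole-brain array, array 13 (7.48) only just above array 21 (7.47). With each array centred on its median this did not hold: supernatant 13 was at 1.26, below whole brain after sleep deprivation 21 at 1.41. The highest supernatants, 15 and 14, are labelled as sleep-deprived, array 16 as control, and the lowest, array 13, is the one with conflicting labels.

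**Figure D1:**
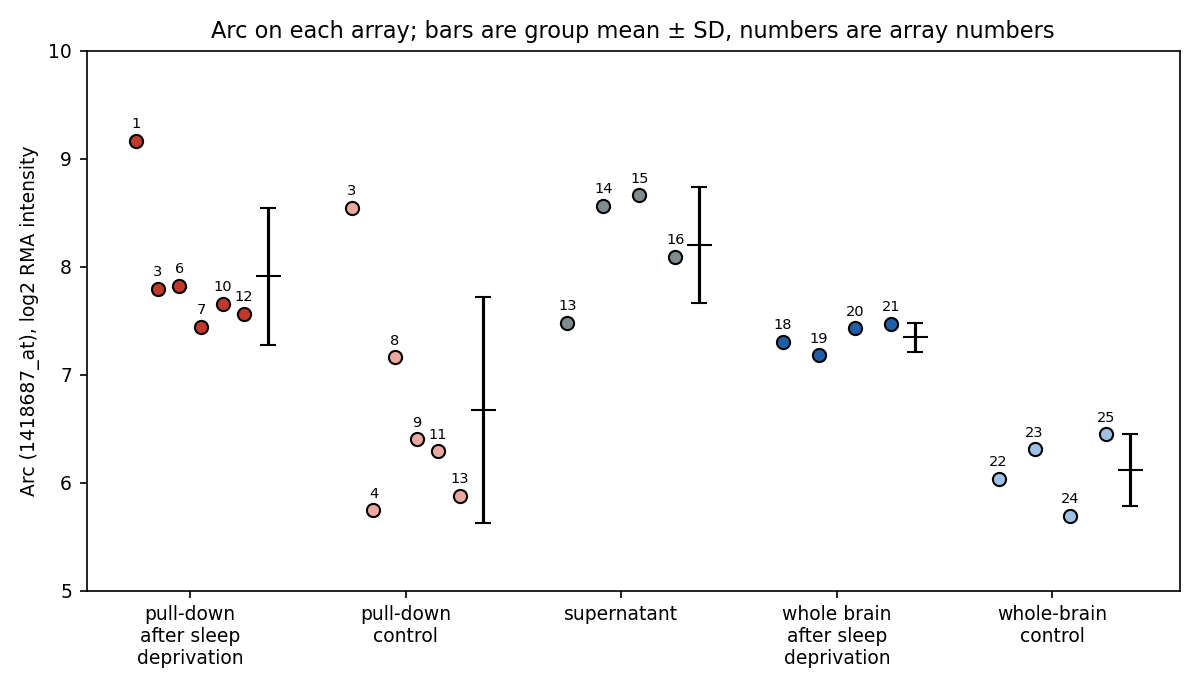
Arc (1418687_at) on each of the 24 arrays, with the log2 RMA intensity on the y axis and the 5 groups along the x axis. Points are arrays with their array number, and bars are the group mean ± SD. The whole-brain groups separate completely, from 7.18 to 7.47 after sleep deprivation against 5.69 to 6.45 in control, while pull-down array 1 after sleep deprivation (9.17) and pull-down control 3 (8.55) stand above their groups.

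For 3 of the 4 pairs of neighbours in that order the difference was smaller than the pooled SD. Supernatant exceeded pull-down after sleep deprivation by 0.29, with a pooled SD of 0.60. Pull-down after sleep deprivation exceeded whole brain after sleep deprivation by 0.56, with a pooled SD of 0.51. Whole brain after sleep deprivation exceeded pull-down control by 0.68 (pooled SD 0.83), and pull-down control exceeded whole-brain control by 0.55 (pooled SD 0.85). All 4 pairs of neighbours overlapped, so the order holds for the means only. It also depends on the scaling. Pull-down after sleep deprivation had the highest mean after quantile normalization (8.20, against 7.92 in supernatant) and after centring (3.00, against 2.05 in supernatant). Pull-down control then also stood above whole brain after sleep deprivation (7.10 against 6.82 after quantile normalization, 1.63 against 1.25 after centring).

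The question put to whole brain was how Arc differed after sleep deprivation in total RNA. Arc rose by 1.22 ± 0.15 (95% confidence interval 0.89 to 1.56), a 2.34-fold difference with an interval of 1.86 to 2.94 (limma, adjusted p = 0.0140, n = 4 and 4). All 4 arrays after sleep deprivation lay above all 4 controls, as did those of 789 probe sets, 1.75% of those tested. In that comparison 16 probe sets (0.0355%) were called higher and 5 (0.0111%) lower at an adjusted p under 0.05. Arc ranked 6th by p among 45037, and only Plin4, which coats lipid droplets, had a larger increase (1.48, adjusted p = 0.000320). The median of all probe sets was -0.07, and Arc stood 1.29 above it. The exact two-sided permutation test of the arrays gave p = 0.0286, the smallest that 70 splits can give, or 0.0346 after Benjamini-Hochberg adjustment over the 2 tests of this family. Bulk RNA cannot tell apart a change in the number of cells that hold Arc mRNA and a change in the amount per cell. The call was lost in limma without whole brain after sleep deprivation 21 (1.18, adjusted p = 0.0639) or 19 (1.28, adjusted p = 0.0599).

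In pull-down, which was meant to hold RNA of Homer1a-expressing cells, the difference in Arc was of the same size but did not pass. Arc was higher by 1.24 ± 0.42 after sleep deprivation (95% confidence interval 0.36 to 2.12), a 2.36-fold difference with an interval of 1.28 to 4.34 (limma, unadjusted p = 0.00836, adjusted p = 1.00, n = 6 and 6). No probe set passed in pull-down (0 of 45037, 0%), and at an unadjusted p under 0.05 there were 222 higher (0.493%) and 208 lower (0.462%). Arc ranked 74th by p and 6th by size. The 5 probe sets with larger increases were a pair for Egr2 (2.04 and 1.87), 1 for Homer1 (1425671_at, 1.57), 1 for Abcc9, a subunit of ATP-sensitive potassium channels (1.53), and 1 for Ptgs2, the inducible cyclooxygenase (1.35). All 6 arrays after sleep deprivation lay above the control mean, and 1 of 6 lay above all controls. The exact two-sided permutation test gave p = 0.0346 with 32 of 924 splits as large (also 0.0346 after adjustment over the 2 tests of this family; the smallest possible was 0.00216).

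The difference between these effects, pull-down minus whole brain, was 0.01 ± 0.57 (95% confidence interval -1.16 to 1.19; limma, unadjusted p = 0.980, adjusted p = 1.00). The interval runs from a ratio of 0.447 to one of 2.28 between the effects, so differences within it were not detectable with these arrays. No probe set passed for that contrast (0%), and 152 (0.338%) had an unadjusted p under 0.05.

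The relation of Arc to 18S was among the reasons for selecting the gene. Among pull-downs after sleep deprivation the 18S signal was 11.04 on array 1, 9.65 on array 3, 8.07 on array 6, 7.82 on array 10, 7.18 on array 12 and 7.17 on array 7. Among pull-down controls it was 11.14 on array 3, 9.70 on array 4, 8.58 on array 8, 7.70 on array 9, 7.58 on array 13 and 6.83 on array 11. The array with the most 18S in each group was also the array with the most Arc. Control array 4 broke the pattern, with the second highest 18S of its group and the lowest Arc.

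**Figure D2:**
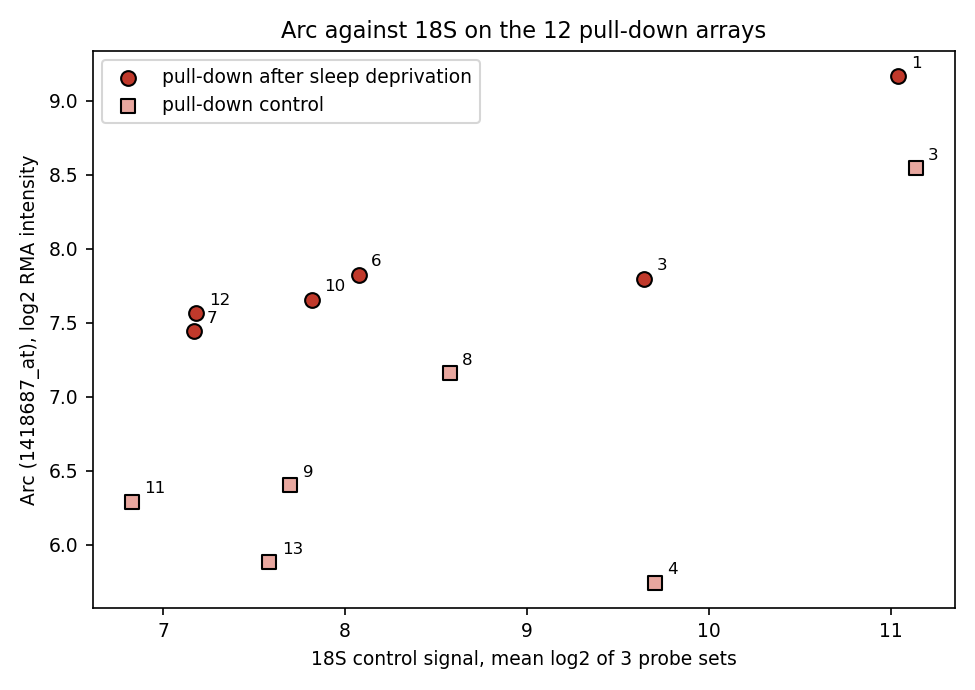
Arc (y axis, log2 RMA intensity) against the mean log2 signal of the 3 18S control probe sets (x axis) on the 12 pull-down arrays, 6 after sleep deprivation (circles) and 6 controls (squares), with array numbers. The arrays with the most 18S, array 1 after sleep deprivation at 11.04 and control 3 at 11.14, have the highest Arc. Over all 12 arrays, 1 of 6 after sleep deprivation lies above all controls. Control 3 is the only control as high as any array after sleep deprivation, so the other 10 arrays do not overlap by group. This is a description, since 18S was part of the selection of Arc.

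Over the 12 pull-down arrays Pearson's r between Arc and 18S was 0.55 and Spearman's rho 0.49. With each array taken as its deviation from its group mean they were 0.72 and 0.66. Within pull-down after sleep deprivation r was 0.89 and rho 0.94, and within pull-down control 0.66 and 0.37, over 6 arrays each. The points share the normalization of their arrays. Probe sets as a whole ran the other way in pull-down: the median r with 18S was -0.33, and 15.4% of probe sets had an r at least as high as that of Arc.

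Pearson's r over all pull-downs rested on a pair of arrays. Without pull-down array 1 after sleep deprivation and control 3, which were also the 2 farthest from the median 18S signal, r was -0.02 and rho 0.13 over 10 arrays, and 0.06 and 0.38 as deviations from the group means. Among the other 5 arrays after sleep deprivation Arc still nearly followed the order of 18S, with arrays 3 and 6 alone in reverse. Without control 4 alone r was 0.77. In whole brain, where 18S hardly varied, r was -0.34 and rho -0.29 over 8 arrays. Other measures of the array went with Arc less closely in pull-down: r was 0.03 with the array median, 0.17 with the Gapdh 3′ minus 5′ difference and -0.44 with that of Actb. In whole brain r was -0.61 with the array median and 0.60 with the Gapdh difference.

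Without the same pair of arrays, Arc in pull-down averaged 7.66 ± 0.16 after sleep deprivation (7.45 to 7.83, n = 5) and 6.30 ± 0.56 in control (5.74 to 7.16, n = 5). The 18S signals of those arrays covered nearly the same range, 7.17 to 9.65 after sleep deprivation and 6.83 to 9.70 in control. The difference was 1.36 ± 0.28, or 2.57-fold. These arrays were left out for their 18S, part of what Arc was selected on, and control 3 was the only control as high as any array after sleep deprivation, so the values are a description without a test. With the 18S signal as a covariate over all 12 arrays the difference was 1.28 ± 0.31, given for the same reason without a test. With the Gapdh 3′ minus 5′ difference as covariate it was 1.22 ± 0.43 (limma, unadjusted p = 0.0132, adjusted p = 1.00).

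The level of Arc in supernatant was the other reason for its selection. It was 1.47 above whole brain, 2.77-fold, which placed it 15th of 45037 probe sets, against a median of 0.03 and quartiles of -0.26 and 0.26. That mean of whole brain weighs both conditions equally, whereas at most 2 of the 4 supernatants are controls, and Arc itself differed by 1.22 between the conditions of whole brain. Above it stood 3 probe sets without a single symbol and 11 others, led by Hira (1.73), a histone chaperone gene, and including Ttc7b (1.71), Gabrb2 (1.51), a GABA-A receptor subunit, and Gnb1 (1.49), a G protein subunit. Just below it stood Kif13a, a kinesin motor, at 1.47 and Ptprn2, a protein of secretory vesicles, at 1.45. These names were read off the ranking after the values were seen. Set against each condition of whole brain, supernatant Arc was 0.85 higher than whole brain after sleep deprivation, where 987 probe sets (2.19%) were at least as high, and 2.08 higher than whole-brain control, where only 1 other was.

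**Figure D3:**
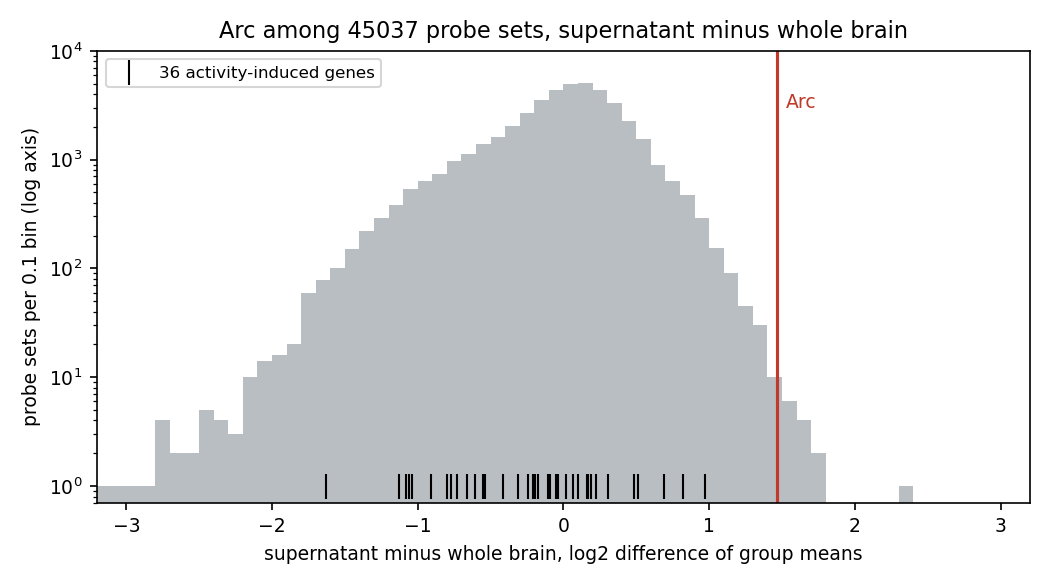
Supernatant minus whole brain for 45037 probe sets (x axis, log2 difference of group means), with the number of probe sets per bin on a log y axis. The red line marks Arc at 1.47 and the black ticks mark 36 other activity-induced genes, which range from -1.63 (Fosl2) to 0.97 (Fosb).

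Against pull-down, supernatant Arc was 0.91 higher, but so were most probe sets: 46.9% differed at least as much, and the median was 0.85. It lay 0.29 above pull-down after sleep deprivation and 1.53 above pull-down control. Centred on each array's median the difference from pull-down turned to -0.27, and after quantile normalization it was 0.27, so the sign of this comparison depends on how arrays are scaled. Against whole brain it stayed between 1.31 and 1.76 over 14 alternatives.

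None of 36 other activity-induced genes, each read from its probe set with the highest mean, lay as far above whole brain in supernatant as Arc. Of these, 13 were above whole brain and 23 were not, with a median of -0.18. The nearest to Arc were Fosb (0.97) and Egr1 (0.82), both transcription factors, followed by Btg2 (0.69), an antiproliferative gene. Probe sets of a gene disagreed: Homer1 was at 0.02 by the one read here and at 0.86 by 1425671_at, and Ptgs2 at -0.54 by the one read here and at 0.74 by 1417263_at. Fos was level with whole brain (-0.04), and Fosl2 (-1.63), Nr4a2 (-1.13) and Egr3 (-1.04) were lower. Of 13 measured genes whose RNA is carried into dendrites, 7 were above whole brain, with a median of 0.02. Marker genes of 8 brain cell types had medians from -1.13 (inhibitory neurons) to -0.29 (oligodendrocyte precursors). The genes given here were chosen after their values were seen, and no test was made of supernatant.

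Arc in pull-down, over both conditions, was 0.56 ± 0.28 above whole brain (95% confidence interval -0.01 to 1.12), 1.47-fold, and did not pass (limma, unadjusted p = 0.0541, adjusted p = 0.0632). It was 7.29 ± 1.05 in pull-down (n = 12) and 6.73 ± 0.70 in whole brain (n = 8). By condition the gap was 0.56 after sleep deprivation (pooled SD 0.51) and 0.55 in control (pooled SD 0.85), and the groups overlapped in both. That these gaps are close restates the difference of 0.01 ± 0.57 between the effects of sleep deprivation. In pull-down minus whole brain over both conditions, 3630 probe sets (8.06%) were called higher and 34378 (76.3%) lower. The median was -0.78, and 6.30% of probe sets were at least as high as Arc. Relative to the median of all probe sets Arc was 1.34 higher as deposited, 1.40 after quantile normalization and 1.34 after centring. The difference itself was 1.49 ± 0.23 after quantile normalization (limma, adjusted p = 4.4e-06) and 1.71 ± 0.29 after centring (limma, adjusted p = 2.1e-05), with 14574 probe sets higher and 11780 lower under the first and 23463 and 8224 under the second. Without pull-down control 4 the difference was 0.65 (limma, adjusted p = 0.0301), and without control 13 it was 0.64 (limma, adjusted p = 0.0364). Without the pair of arrays with the most 18S, which also had the most Arc, the difference was 0.24. That value is a description without a test, since 18S was part of what Arc was selected on.

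Of the 36 activity-induced genes, by 1 probe set each, 2 rose in whole brain after sleep deprivation and none fell, with a median of 0.19 against -0.07 for all probe sets. These were Fos (1.06 ± 0.12, limma, adjusted p = 0.0115), a subunit of the AP-1 transcription factor, and Egr2 (1.12 ± 0.17, limma, adjusted p = 0.0371), a zinc finger transcription factor. Of all probe sets, 0.0355% were called higher and 0.0111% lower. Homer1 counts as not passing by the probe set read here (1437363_at, 0.17), but 2 of its 6 probe sets rose, 1436387_at (0.85, limma, adjusted p = 0.0406) and 1425671_at (0.84, limma, adjusted p = 0.0408). In all, 24 of the 36 lay above 0, against 33.3% of all probe sets. In 10 the groups did not overlap, with sleep deprivation higher, against 1.75% of all probe sets. At an unadjusted p under 0.05, 14 were higher and 1 lower, where 947 of all probe sets (2.10%) were higher and 3979 (8.83%) lower. Closest to the threshold were Dusp1 (0.77, limma, adjusted p = 0.0502), a phosphatase of MAP kinases, Inhba (0.70, limma, adjusted p = 0.0628), an activin subunit, and Egr1 (0.63, limma, adjusted p = 0.0763). Npas4, an activity-dependent transcription factor that is among the regulators of Arc, was at -0.22, and Egr4 was lowest at -0.28. Apart from Fos, Egr2 and Egr1, these genes were chosen after their values were seen. The number called changed with the alternatives, from 0 without whole brain after sleep deprivation 19 or 21, or in 1 fit of all 24 arrays, to 8 with an intensity-dependent prior variance.

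In pull-down, 29 of the 36 lay above 0 and none passed (limma, adjusted p = 1.00 for each), with a median of 0.48 against -0.05 for all probe sets. At an unadjusted p under 0.05, 14 were higher and 0 lower, against 0.493% and 0.462% of all probe sets. Of all probe sets in pull-down, 39.5% lay above 0. The smallest p belonged to Ptgs2 (1.35 ± 0.28, limma, unadjusted p = 0.000132) and Fosl2 (1.22 ± 0.27, limma, unadjusted p = 0.000229). Egr2 stood at 1.87 ± 0.41 and Fos at 1.19 ± 0.38, beside 1.24 ± 0.42 for Arc. For the effect in pull-down minus that in whole brain, 27 of the 36 lay above 0 with a median of 0.15, against 0.03 for all probe sets, and none passed (limma). At an unadjusted p under 0.05 there was 1, against 0.338% of all probe sets, of which 54.9% lay above 0.

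**Figure D4:**
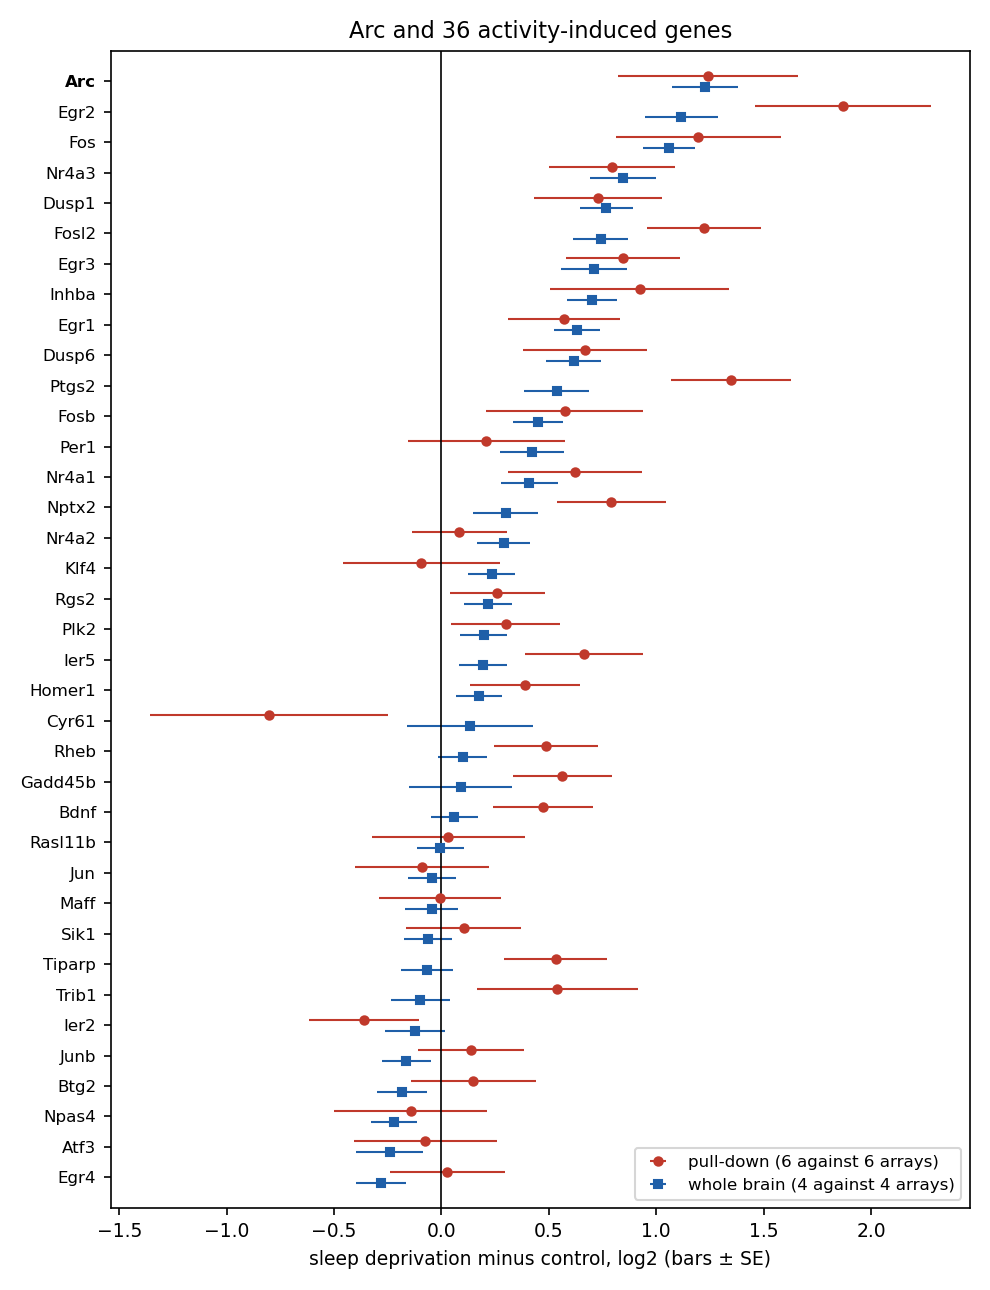
Sleep deprivation minus control (x axis, log2 difference ± SE) for Arc and 36 activity-induced genes, 1 probe set per gene, in pull-down (red circles, 6 against 6 arrays) and whole brain (blue squares, 4 against 4 arrays), ordered by the whole-brain difference. Arc has the largest whole-brain difference of the genes plotted (1.22) and about the same in pull-down (1.24), with a longer bar.

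Regulators and partners of Arc, other Gag-derived genes and dendritic RNAs were read in 8 lists with 105 measured genes. None of them passed after sleep deprivation in whole brain or in pull-down (limma). Of all probe sets, 0.0355% were called higher and 0.0111% lower in whole brain, and 0% in pull-down. With shares so low, none called says little about the lists. At an unadjusted p under 0.05, 4 were higher and 1 lower in whole brain, and 2 were higher and 1 lower in pull-down. Of all probe sets, 2.10% were higher and 8.83% lower in whole brain, and 0.493% and 0.462% in pull-down. Egr1 and Egr3, also in the activity-induced list, are among the 4 in whole brain and are the 2 in pull-down. Among 17 regulators of Arc transcription, which include SRF, MEF2 and CREB factors, Egr1 (0.63) and Egr3 (0.71) had the smallest p in whole brain, and Egr3 (0.85 ± 0.27, limma, unadjusted p = 0.00508) in pull-down. Srf, which binds the synaptic activity-responsive element of Arc, was at 0.23 in whole brain and -0.15 in pull-down, and Creb1 at 0.06 and 0.23, both named for their role. Egr1 passed in whole brain after quantile normalization (0.70, limma, adjusted p = 0.0178) and after centring (0.72, limma, adjusted p = 0.0293).

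Upstream of transcription, 15 of 21 genes of synaptic signalling were measured. In whole brain Grin2b, an NMDA receptor subunit, was at -0.30 (limma, adjusted p = 0.358) and Camk4, a calcium-dependent kinase, at 0.21 (limma, adjusted p = 0.495). In pull-down Bdnf, the neurotrophin that induces Arc, was at 0.47 (limma, unadjusted p = 0.0578) and Camk2a, a synaptic kinase, at 0.29. Of the genes for transport, translation and decay of Arc mRNA, 20 of 23 were measured. In whole brain Fxr1, an RNA-binding relative of the fragile X protein, was at 0.32 (limma, adjusted p = 0.349) and Upf2, of nonsense-mediated decay, at 0.23 (limma, adjusted p = 0.542). In pull-down Fmr1, the fragile X gene, was at 0.46 and Stau1, which carries RNA into dendrites, at 0.47. Of 13 dendritic RNAs measured, Map2, of microtubules, and Shank3, a synaptic scaffold, were both at 0.10 in whole brain, and Eef1a1, a translation factor, was at 0.34 in pull-down, next to Bdnf.

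At the protein end, the 13 endocytosis genes included Cltb, a clathrin light chain, at 0.21 in whole brain and 0.30 in pull-down, Ap2b1, a clathrin adaptor, at 0.15 in whole brain, and Dnm2, a dynamin, at -0.24 in pull-down. Of 12 measured synaptic partners, Gria1, an AMPA receptor subunit, was at 0.22 in whole brain (limma, adjusted p = 0.455) and Wasf1, a regulator of actin, at -0.15. In pull-down Kat5, a histone acetyltransferase, was at 0.54 and the actin-binding Dbn1 at 0.64. Of 7 genes of Arc protein turnover, the kinase Gsk3a was at 0.21 and Ube3a, a ubiquitin ligase, at 0.16 in whole brain. In pull-down Rnf216, another ligase, was at 0.50 (limma, unadjusted p = 0.0614) and the kinase Gsk3b at 0.15. Of 12 other Gag-derived genes measured, 2 lay above 0 in whole brain and 7 in pull-down, where 33.3% and 39.5% of all probe sets did. Pnmal2 was at -0.26 and Pnma5 at -0.29 in whole brain, and Pnma1 at -0.63 (limma, unadjusted p = 0.00867) and Pnma5 at -0.34 in pull-down.

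Of 58 marker genes of 8 cell types, none was called higher and 1 was called lower in whole brain, Opalin of oligodendrocytes (-0.93, limma, adjusted p = 0.0250). None was called in pull-down. At an unadjusted p under 0.05, 3 were higher and 7 lower in whole brain, and 2 higher and none lower in pull-down. Of all probe sets, 2.10% were higher and 8.83% lower in whole brain, and 0.493% and 0.462% in pull-down. At the adjusted threshold, 0.0355% of all probe sets were called higher and 0.0111% lower in whole brain. The 10 general neuron markers had medians of 0.08 in whole brain and 0.02 in pull-down, and the 6 measured excitatory neuron markers -0.02 and 0.20. In pull-down against whole brain, 6 of the 58 markers were called higher and 45 lower, near the 8.06% and 76.3% of all probe sets.

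The genes most like Arc were those with the highest Pearson's r among 18192 genes other than Arc, each by its best probe set. Over all 24 arrays Per2, a repressor of the circadian clock, came first at 0.86, followed by Ccnd2, a cyclin, at 0.80 and Ptgs2 (1417263_at) at 0.79. The remaining 7 were Syt13 (0.76), Txndc17 (0.74), Rbm24 (0.74), Katnal1 (0.72), Sh2d5 (0.72), Rimbp2 (0.72) and Homer1 (1425671_at, 0.72). In all 13 genes reached 0.7 and 0 reached 0.9. Of the 10, 2 stayed among the first 10 after quantile normalization and 4 after centring, with Per2 and Syt13 in both.

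Per2 had the same order of group means as Arc: 8.09 ± 0.63 in pull-down after sleep deprivation, 7.17 ± 0.94 in pull-down control, 8.42 ± 0.72 in supernatant, 7.62 ± 0.15 in whole brain after sleep deprivation and 6.92 ± 0.20 in whole-brain control. Its difference after sleep deprivation was 0.71 in whole brain (limma, adjusted p = 0.0908) and 0.92 in pull-down (limma, unadjusted p = 0.0313), and it stood 1.15 above whole brain in supernatant. Per2 was picked for its r with Arc over these same arrays, supernatant included. Its order of means and its differences therefore describe that likeness and are no separate result. The Homer1 probe set averaged 9.004 ± 0.97 in pull-down after sleep deprivation, 7.44 ± 1.26 in pull-down control, 9.51 ± 0.58 in supernatant, 9.07 ± 0.10 in whole brain after sleep deprivation and 8.24 ± 0.24 in whole-brain control. It had its lowest mean in pull-down control, where Arc had its lowest in whole-brain control.

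**Figure D5:**
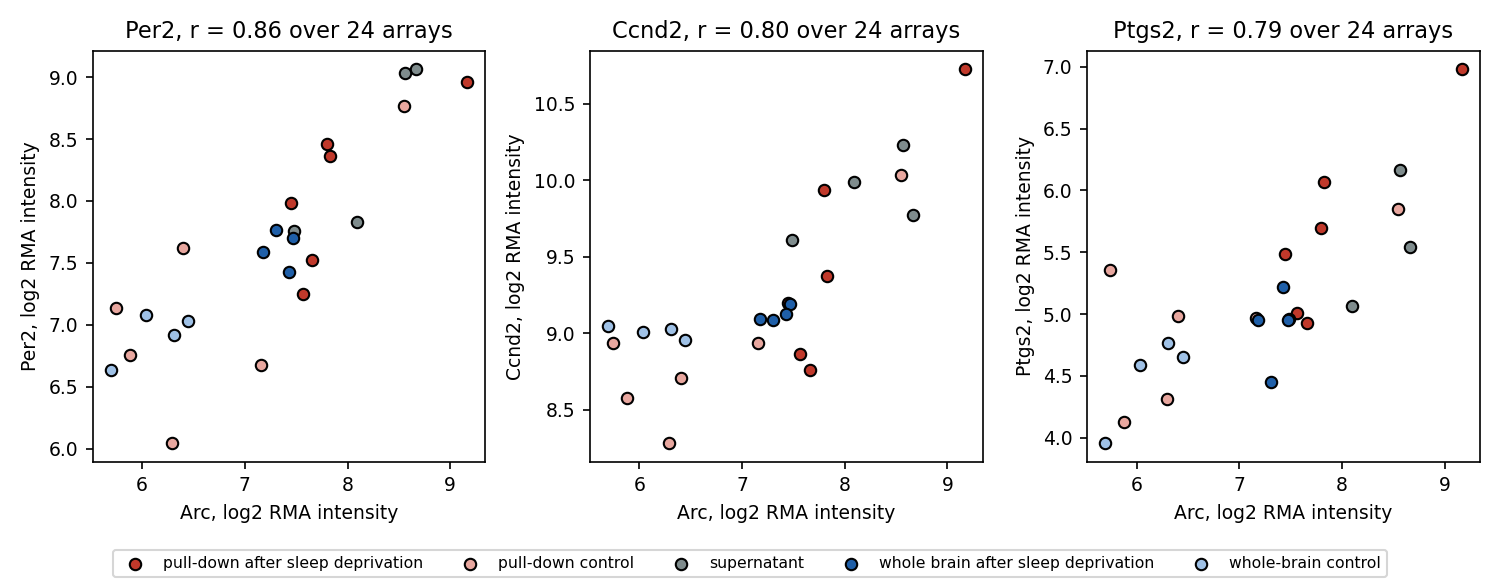
The 3 genes most like Arc over all 24 arrays, with Arc on the x axis and Per2, Ccnd2 and Ptgs2 (1417263_at) on the y axes, all log2 RMA intensities, and points coloured by group. Pearson's r is 0.86, 0.80 and 0.79, and most supernatants and the highest pull-down arrays lie at the upper right in the Per2 and Ccnd2 panels.

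Within pull-down, as deviations from the group means, the 10 genes most like Arc were Pithd1 (0.97), Setd1b (0.97), Fam76a (0.96), Plcb1 (0.95), Camkv (0.95), Sptbn1 (0.95), Fam227a (0.94), Cdk5r1 (0.94), Cdc73 (0.94) and Dhdds (0.94). In all, 84 genes reached 0.9. The 10 also ran with 18S, at an r of 0.67 to 0.84. They were picked for following Arc, which had an r of 0.72 with 18S over the same deviations. Their relation to 18S is therefore no separate result. Without the 2 arrays with the most 18S, the r of Arc with 18S was 0.06. In whole brain, over 8 arrays with the difference between conditions left in, the first were Spred1 (0.98), Msi2 (0.97), Itsn2 (0.96), Htr1b (0.95), Syn3 (0.95), Zbtb16 (0.95), Bag5 (0.95), Chmp1b (0.95), Sec62 (0.95) and Egr2 (0.94), and 67 genes reached 0.9. Of these 10, Zbtb16, a transcription factor induced by glucocorticoids, rose by 0.85 after sleep deprivation (limma, adjusted p = 0.0270) and Egr2 (1427682_a_at) rose by 1.14 (limma, adjusted p = 0.0250). The other 8 were not called. Of all probe sets, 0.0355% were called higher. Arc itself differed by 1.22 between the conditions of these arrays, so picking genes by r with Arc favoured such rises. The calls among them are no separate result. These correlations share arrays and normalization and are given as descriptions.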

How the data were processed

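For each array the authors deposited log2 intensities of probe sets, from RMA in the affy package per the submitters' processing notes. The sources used here do not give versions or say whether all extracts were normalized in 1 batch. The labels name an amplification for immunoprecipitated RNA only. The files hold no detection call, so no level was set as background. The values were used as deposited, and 64 control probe sets were left out of the tests. The array annotation of 2016 gave 1 symbol to 34945 of 45037 probe sets, several to 932 and none to 9160.

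Sleep deprivation was tested with limma 3.58.1 (lmFit and eBayes, two-sided) in R 4.3.3, within pull-down and within whole brain on their own arrays. Their difference was a contrast over the 20 arrays of both extracts. Pull-down minus whole brain was a contrast in a fit of all 24 arrays in 5 groups, so supernatant arrays entered its spread. P-values were adjusted by Benjamini-Hochberg over all 45037 probe sets, with a threshold of 0.05. Arc alone was also tested by exact permutation of arrays. The limma p-values set a difference against the spread between these arrays, moderated over all probe sets. Permutation p-values set it against other splits of the same arrays. The number of arrays limits the precision.

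The gene and the lists were chosen with earlier results of these data known. Each list gene was read from its probe set with the highest mean. Named were every list gene past the threshold (at most 4), otherwise those with the 2 smallest p, and the 10 genes most like Arc in 3 sets of arrays. Alternatives were the scaling between arrays, array weights, a filter on low levels, a trend in the prior variance, 1 fit of all 24 arrays, covariates and leaving out arrays.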

Additional observations from a re-analysis of the deposited data

Results flagged for a closer look

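Dixon's test checked 30 sets of values for Arc, 18S and the genes set beside Arc, each over a group of 4 or 6 arrays. In 4 of them an array stood apart from its group at the test's 1 in 20 level. Arc and 18S values were part of the selection of Arc, so their flags are descriptions. The count of 4, which includes them, is therefore not set against a chance rate. Arc in pull-down array 1 after sleep deprivation, at 9.17, lay far above the 7.45 to 7.83 of the other 5, and without this array the difference in pull-down was 0.99. The 18S signal of supernatant 13, the array with conflicting labels and the lowest Arc of its group, was 14.42 against a group mean of 14.29. Fos in whole-brain control 24, the control with the lowest Arc, was 6.11 against a group mean of 5.79. Ptgs2 (1417262_at) in whole brain after sleep deprivation 21, the array with the highest Arc of its group, was 5.50 against a group mean of 5.86.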

How the results depend on the processing

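Arc in pull-down kept its direction under all 21 alternatives (0.97 to 1.61). Of these, the fit with 18S as covariate and the one without the 2 arrays with the most 18S are descriptions without a test. Under the others Arc did not pass (limma, adjusted p from 0.621 to 1.00). In whole brain it kept its call under 11 of 14 alternatives. The exceptions were 1 fit of all 24 arrays (1.22, adjusted p = 1.00), whose spread is shared with pull-down, and the fits without array 21 or 19 given above, and leaving out 1 array at a time gave 1.08 to 1.33. The difference between extracts turned to -0.21 after quantile normalization and also -0.21 with array weights, and ran from -0.24 to 0.39 with 1 array left out, never passing. Pull-down minus whole brain passed after quantile normalization (1.49), after centring (1.71) and with array weights (0.43, adjusted p = 0.0293), and ran from 0.37 to 0.65 with 1 array left out. Supernatant minus pull-down was -0.27 with arrays centred and 0.27 with quantile normalization. The correlation with 18S was 0.89 within pull-down after sleep deprivation, -0.019 without the 2 arrays farthest from the median 18S, and 0.36 to 0.77 with 1 array left out. Called probe sets in whole brain numbered 49 after quantile normalization, 46 after centring, 54 with the filter, 59 with the trend, 0 in 1 fit of all arrays and 1 to 16 with 1 array left out, against 21. In pull-down they numbered 2 with array weights and 3 in 1 fit of all arrays. Activity-induced genes called in whole brain numbered 7 after quantile normalization, centring or the filter, 4 with array weights and 8 with the trend, against 2. The genes most like Arc shared 3 of 10 in pull-down after quantile normalization and 5 after centring, and 3 in whole brain under either. The causes were not tested. No paired analysis was possible because the groups compared share fewer than 2 array numbers. The alternatives for the list genes, the likeness and the deviations from group means were chosen after seeing the data.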
